A study of Rattus norvegicus with 6 samples.

Results

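The genes described here encode enzymes that make asparagine, serine, proline, glutamine and folate-bound one-carbon units. They were chosen as the rows of a deposited read count table whose symbol is Asns, Phgdh, Psat1, Psph, Shmt2, Mthfd2, Mthfd1l, Aldh18a1, Pycr1 or Glul. All 10 symbols were found among the 21857 rows. Of these, 9 passed the filter on low counts and were tested, and Aldh18a1 had no count in any library. RNA was sequenced from adipose-derived mesenchymal stem cells, which are stromal cells grown out of fat tissue, of the Sprague Dawley rat strain. The medium was DMEM/HG made without leucine, isoleucine and valine, the branched chain amino acids (BCAA), and it held fetal bovine serum, penicillin and streptomycin. For 12 hours they received either vehicle (3 libraries) or 3.432 mM BCAA (3 libraries), and both groups were exposed to 100 µM hydrogen peroxide, so the comparison has no arm without the oxidant. No source used here gives the composition of the BCAA mixture, the vehicle, or the animals or cultures behind the replicates. The p-values therefore reflect library-to-library spread, which may be technical.

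Serine is made from the glycolytic intermediate 3-phosphoglycerate by Phgdh, Psat1 and Psph acting in turn. Shmt2 then moves a carbon from serine to folate in mitochondria, and Mthfd2 and Mthfd1l carry that carbon on to formate, which the cytosol uses for purine and thymidylate synthesis. Proline is made from glutamate by Aldh18a1 and Pycr1, Glul joins ammonia to glutamate to give glutamine, and Asns makes asparagine from aspartate. Asns and many genes of serine, proline and folate metabolism are textbook targets of ATF4, the transcription factor whose translation rises when amino acids are short. The comparison asks whether transcripts of these enzymes were at other levels once BCAA were added to a medium made without them. The serum in that medium may hold some BCAA, and no source used here gives its content.

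Library totals were 12725344 to 15739731 counts. On the first principal component vehicle replicate 1 scored -26.8, away from the remaining 5 libraries at -0.54 to 15.2. Stromal markers were plentiful, with 9 of 10 listed genes found and a summed level of 11200 to 14400 CPM (read counts relative to the library's TMM-scaled total) with vehicle and 12100 to 13100 CPM with BCAA. Col1a1 made up most of that sum, at means of 7455 and 6926 CPM, and ran from 5450 to 8480 CPM among vehicle libraries. Vim was lower in every BCAA library (log2 fold change -0.26, SE 0.06, edgeR adjusted p = 0.101). Cd44 was higher in every BCAA library (log2 fold change 0.11, SE 0.06, edgeR adjusted p = 0.509). Markers of macrophages and leukocytes summed to 864 to 1030 CPM with vehicle and 808 to 864 CPM with BCAA, with Lyz2 the most abundant of the 8 of 9 found. Endothelial markers summed to 41.8 to 47.5 CPM with vehicle and 40.2 to 43.6 CPM with BCAA (6 of 7 found), with Cldn5 at 0. Adipocyte markers summed to 352 to 449 CPM with vehicle and 380 to 404 CPM with BCAA, nearly all from Lpl, while Adipoq, Plin1, Lep and Cidec were each under 1 CPM on average. The 7 smooth muscle and pericyte markers summed to 887 to 953 CPM with vehicle and 610 to 636 CPM with BCAA, and Acta2 and Tagln among them fell (edgeR adjusted p = 0.000586 and 0.000357). Tagln made up most of that sum, at a mean of 794 CPM with vehicle and 519 CPM with BCAA. Cnn1, Myh11 and Des were also lower without passing the adjusted threshold. The groups overlapped for Cspg4 (log2 fold change -0.07, SE 0.17), and Rgs5 had 0 to 2 counts per library. The smooth muscle sum was lower in every BCAA library than in every vehicle library, and its part in the enzyme values below was not tested. In bulk RNA, fewer cells of a type and less RNA per cell cannot be told apart.

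None of the 9 enzyme genes tested passed an adjusted p of 0.05 in either direction (edgeR quasi-likelihood test, Benjamini-Hochberg over 12298 genes), against 28 genes or 0.228% of all genes tested. DESeq2 called none of the 8 to which it gave an adjusted p (Pycr1 had none), against 1.75% of the 8217 genes that had one. Without vehicle replicate 1 edgeR called none of the 9, against 3.93% of all genes. None of the 9 had an unadjusted p under 0.05 with edgeR or DESeq2, where edgeR placed 11.8% of all genes under that value, 5.95% higher and 5.84% lower. The median log2 fold change of the 9 genes was 0.01 and that of all genes tested was 0.0035, and 6 of the 9 had a positive sign beside 50.8% of all genes. Adjusted p-values of the 9 genes ran from 0.488 for Glul to 0.99 for Asns. The largest estimate in either direction was a 1.11-fold ratio, for Psph. Each gene's 95% interval lay inside a 1.5-fold change either way for all 9 genes and inside a 1.3-fold change for 8 of them, the exception being Pycr1. For comparison, 74.4% and 51.5% of all genes tested had intervals inside those limits. The intervals are not adjusted for the number of genes.

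**Figure D1:**
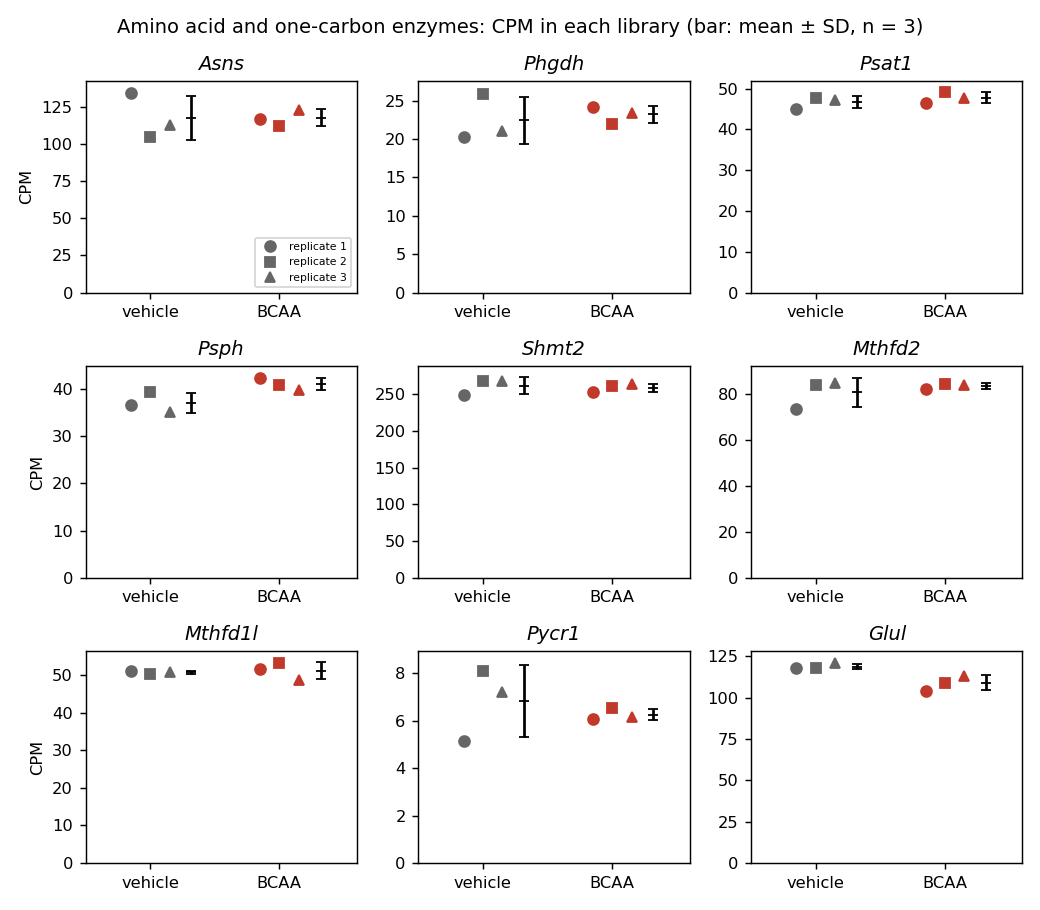
CPM on TMM-scaled library sizes (vertical axes, from 0) of the 9 tested enzyme genes in each library, with vehicle in grey, BCAA in red and replicate number as marker shape; the black bars are mean ± SD, n = 3. The groups overlap in every panel but those of Psph, where BCAA lies above, and Glul, where BCAA lies below.

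Asns, asparagine synthetase, was at 134, 105 and 113 CPM in vehicle replicates 1 to 3 and at 117, 112 and 123 CPM in BCAA replicates 1 to 3. The highest library and the lowest library both belonged to the vehicle group, and the BCAA libraries lay between them. The group means were 117 ± 15 CPM with vehicle and 118 ± 5.57 CPM with BCAA (SD, n = 3 each). A log2 fold change of 0.0037 (SE 0.09) was estimated, with a 95% interval from -0.18 to 0.19, that is from 0.88-fold to 1.14-fold. Without vehicle replicate 1 the log2 fold change was 0.11, and without vehicle replicate 2 it was -0.07, so the sign of this near-zero difference changed with the library left out and edgeR's adjusted p stayed above 0.05 in each case.

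Phgdh, the dehydrogenase that opens serine synthesis, was at 20.3, 25.9 and 21.1 CPM with vehicle and at 24.2, 22.0 and 23.4 CPM with BCAA, in the order of the replicates. Vehicle replicate 2 was the highest library and the other vehicle libraries were the lowest, so the groups overlapped. Its log2 fold change was 0.05 (SE 0.11; 95% interval -0.20 to 0.29), and it was -0.02 without vehicle replicate 1. Psat1, the aminotransferase of the next step, was among the steadiest of the set, at 45, 47.7 and 47.3 CPM with vehicle and at 46.6, 49.2 and 47.6 CPM with BCAA. The groups overlapped, with means of 46.7 ± 1.47 and 47.8 ± 1.31 CPM (SD, n = 3 each) and a log2 fold change of 0.04 (SE 0.08).

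Psph, the phosphatase that releases serine, was at 36.5, 39.3 and 35.1 CPM with vehicle and at 42.3, 40.9 and 39.8 CPM with BCAA. Every BCAA library lay above every vehicle library, by a narrow margin between BCAA replicate 3 and vehicle replicate 2. The means were 37.0 ± 2.14 and 41.0 ± 1.28 CPM (SD, n = 3 each), and the log2 fold change was 0.15 (SE 0.08; 95% interval -0.03 to 0.33), with edgeR's adjusted p at 0.518 and its unadjusted p at 0.102. Psph and Glul were the 2 of 9 genes (22.2%) whose groups did not overlap, where 18.1% of all genes tested had groups that did not, so that share is near the background. The 3 serine enzymes thus had log2 fold changes of 0.05, 0.04 and 0.15, none of which passed the test.

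Shmt2, the mitochondrial serine hydroxymethyltransferase, was at 248, 268 and 268 CPM with vehicle and at 253, 261 and 263 CPM with BCAA. Vehicle replicate 1 was lowest and the other vehicle libraries highest, and the log2 fold change was -0.01 (SE 0.06; 95% interval -0.15 to 0.12). With the highest counts of the set, 3354 to 4216 per library, Shmt2 also had its narrowest interval. Mthfd2, the mitochondrial methylenetetrahydrofolate dehydrogenase, was at 73.4, 84.0 and 84.8 CPM with vehicle and at 82.2, 84.6 and 84.1 CPM with BCAA. Of its 6 libraries 5 lay between 82.2 and 84.8 CPM, and vehicle replicate 1 alone was lower. Its log2 fold change was 0.05 (SE 0.08), and -0.01 without vehicle replicate 1. Mthfd1l, which releases formate from mitochondrial folate, was at 51.3, 50.3 and 50.8 CPM with vehicle and at 51.8, 53.2 and 48.7 CPM with BCAA. Its vehicle libraries lay within the range of its BCAA libraries, and the log2 fold change was 0.01 (SE 0.08; 95% interval -0.15 to 0.18).

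The next 2 genes make proline. Aldh18a1, which reduces glutamate to the proline precursor, had 0 counts in all 6 libraries. A count of 0 allows up to 3 counts, that is 0.19 to 0.235 CPM depending on the library, and covers counting error only. The value limits reads assigned to this symbol in the deposited table, and whether reads of the gene were lost in alignment or counting was not tested. Pycr1, the reductase that completes proline in mitochondria, was at 5.16, 8.12 and 7.21 CPM with vehicle and at 6.07, 6.53 and 6.18 CPM with BCAA. The vehicle libraries spanned a 1.58-fold range that held all BCAA libraries. With 72 to 128 counts per library it had the fewest counts of the tested genes and the widest interval (log2 fold change -0.13, SE 0.18; 95% interval -0.52 to 0.26), so a change of up to 1.43-fold downward lies within it. Without vehicle replicate 2 the log2 fold change of Pycr1 was 0.02 and without vehicle replicate 1 it was -0.29, so its size and sign changed with the vehicle library left out.

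Glul, glutamine synthetase, was at 118, 118 and 121 CPM with vehicle and at 104, 109 and 113 CPM with BCAA. All BCAA libraries lay below all vehicle libraries. The means were 119 ± 1.58 CPM and 109 ± 4.65 CPM (SD, n = 3 each), a log2 fold change of -0.12 (SE 0.07; 95% interval -0.27 to 0.02). Although Glul had the smallest p of the set, at 0.0821 with edgeR and 0.488 after adjustment, 2066 other genes of the table had a smaller one.

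**Figure D2:**
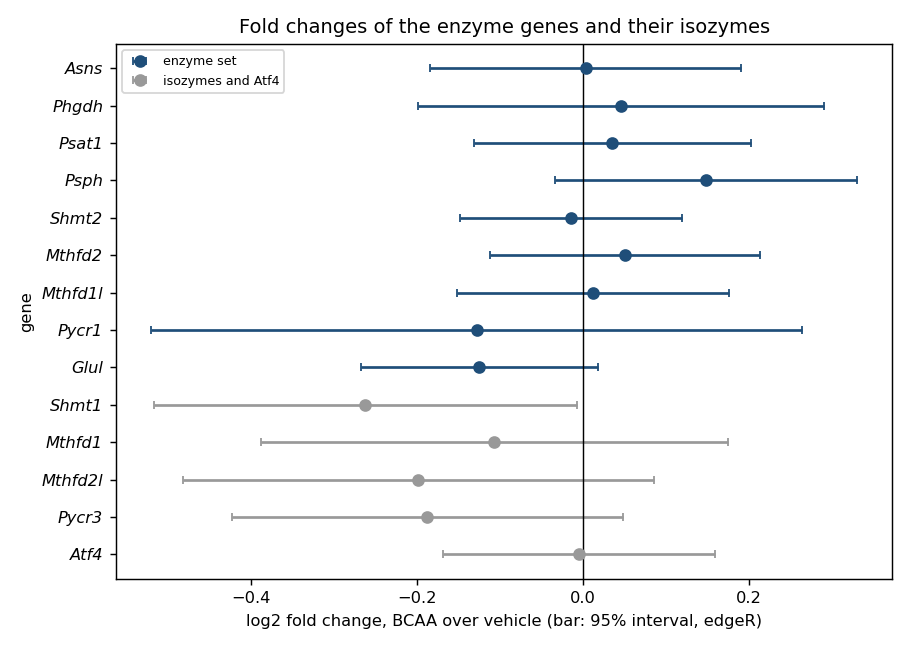
Log2 fold change of BCAA over vehicle (horizontal axis) for the 9 tested enzyme genes (blue) and for 4 isozymes and Atf4 (grey), with 95% intervals from the edgeR fit. Every interval of the blue genes includes 0, from Shmt2 with the narrowest to Pycr1 with the widest.

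The vehicle libraries differed among themselves. Vehicle replicate 1 held the lowest level of all 6 libraries for 5 of the 9 genes (Phgdh, Psat1, Shmt2, Mthfd2 and Pycr1), while 24.7% of all genes tested were lowest there. The same library held the highest level of Asns, and 23.6% of all genes were highest there. As deviations of log2 CPM from the gene's mean over 6 libraries, vehicle replicate 1 stood at 0.19 for Asns, -0.16 for both Phgdh and Mthfd2, -0.07 for both Psat1 and Shmt2, and -0.32 for Pycr1. Asns thus went opposite to these 5 enzymes there. In vehicle replicate 2 the signs were turned, with Asns at -0.16 and Phgdh and Pycr1 at 0.19 and 0.32. The coefficient of variation was larger with vehicle than with BCAA for 7 of the 9 genes, the exceptions being Mthfd1l and Glul, and for 59.6% of all genes tested. Asns, for example, varied by 12.8% with vehicle and 4.73% with BCAA, and Pycr1 by 22.3% and 3.76%.

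**Figure D3:**
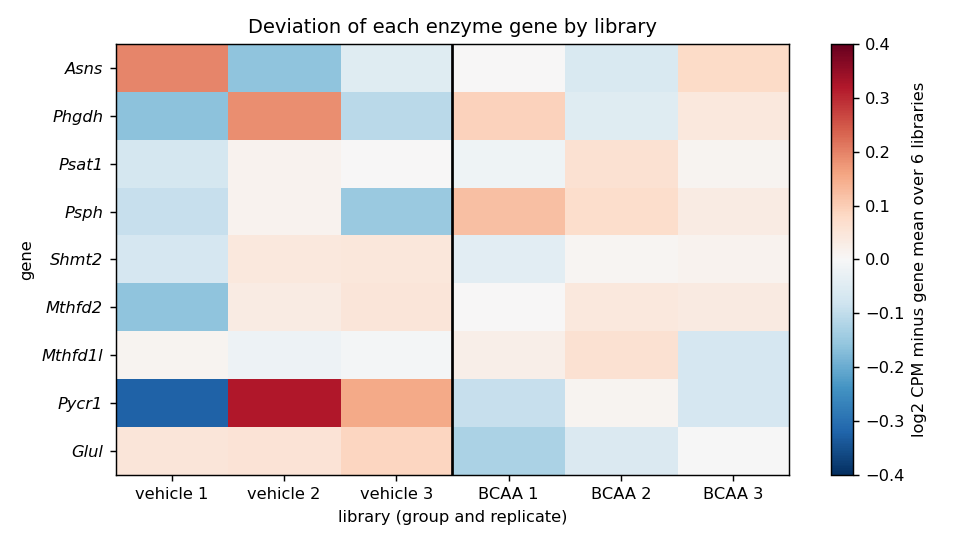
Log2 CPM minus the gene's mean over the 6 libraries (colour) for the 9 tested enzyme genes (rows) in each library (columns, vehicle left of the line and BCAA right). The strongest colours are those of Pycr1 in vehicle replicate 1 (-0.32) and vehicle replicate 2 (0.32), and Asns has the colour opposite to Pycr1 in all 3 vehicle libraries.

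Genes with the profile most like the mean of the 9, taken as the average deviation in each library, were Grhl3, Dact2, Mib2, Xrcc1 and Il17d, with Pearson r from 0.987 to 0.990 over the 6 libraries. The mean profile itself spanned only -0.07 in vehicle replicate 1 to 0.05 in vehicle replicate 2, with the BCAA libraries between -0.004 and 0.0093. Pycr1, the tested enzyme gene with the fewest counts, had the largest deviations in both of these vehicle libraries (-0.32 and 0.32). Asns went the other way (0.19 and -0.16). Grhl3 and Il17d were themselves low, with means of 1.305 and 2.889 CPM. The 5 genes named are the top 5 of 11825 genes ranked on 6 points, given as a description without a test.

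Partners of the enzymes were counted from 4 lists that hold 79 genes, of which 78 were found and 71 were tested. Of 24 tested genes of serine, glycine and folate metabolism none passed the adjusted threshold with edgeR (median log2 fold change 0.05). At an unadjusted p under 0.05, 1 was higher and 1 lower, beside 5.95% and 5.84% of all genes. DESeq2 called none of the 14 to which it gave an adjusted p, and none had an unadjusted p under 0.05 with it. Shmt1, the cytosolic counterpart of Shmt2, was at 15.5, 17.8 and 16.8 CPM with vehicle and at 15.3, 13.4 and 13.1 CPM with BCAA. All its BCAA libraries lay below its vehicle libraries, but the difference did not pass (log2 fold change -0.26, SE 0.12, edgeR adjusted p = 0.415). Gcsh, a carrier protein of the glycine cleavage system, and Fpgs, which adds glutamate to folate, had log2 fold changes of -0.17 and -0.18 (SE 0.08 and 0.09). Mthfd1, the cytosolic folate enzyme, and Mthfd2l, the isozyme of Mthfd2, had -0.11 and -0.20 (SE 0.13 for each). The difference in response between isozymes was not tested.

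In the list of proline, glutamate and glutamine partners none of 16 tested genes passed with edgeR, while 4 were higher and 0 lower at an unadjusted p under 0.05, beside 5.95% and 5.84% of all genes (median log2 fold change 0.09). DESeq2 called none of the 12 with an adjusted p, which Aspg was not among. With it 3 of the 16 had an unadjusted p under 0.05, for which no share of all genes is given here. Aspg, an asparaginase that breaks down the product of Asns, was at 4.44, 3.36 and 3.37 CPM with vehicle and at 5.87, 7.03 and 6.50 CPM with BCAA. Its groups did not overlap, and the log2 fold change was 0.80 (SE 0.19, edgeR adjusted p = 0.0996). Without vehicle replicate 1 the adjusted p of Aspg was 0.013 and without the low-count filter 0.0446, both edgeR, and its range across the alternatives was 0.013 to 0.375. The transporter genes Slc7a11, for cystine and glutamate, and Slc38a2, for small neutral amino acids, had log2 fold changes of 0.22 and 0.19 (SE 0.07 for each). Their edgeR adjusted p of 0.201 and 0.288 became 0.0433 and 0.0063 without vehicle replicate 1, a refit that called 3.93% of all genes. Across the alternatives their adjusted p ran from 0.0433 to 0.59 and from 0.0063 to 0.625. Gpt2, the mitochondrial alanine aminotransferase, had a log2 fold change of 0.29 (SE 0.13). Pycr3 (listed under its older symbol Pycrl), an isozyme of Pycr1, had a log2 fold change of -0.19 (SE 0.11).

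Atf4 itself was at 803, 675 and 674 CPM with vehicle and at 678, 711 and 757 CPM with BCAA. Vehicle replicate 1 was again highest, as for Asns, and the log2 fold change was -0.0043 (SE 0.08), or 0.09 without that library. Of the 17 tested genes in the list of ATF4 and regulators, Atf3 rose and 16 did not pass, beside 0.228% of all genes called. At an unadjusted p under 0.05, 6 were higher and 0 lower, beside 5.95% and 5.84% of all genes (median log2 fold change 0.09). DESeq2 called 2 of the 17, Atf3 and Vldlr, beside 1.75% of the 8217 genes to which it gave an adjusted p. With it 6 had an unadjusted p under 0.05, for which no share of all genes is given here. With the replicate number as a block, edgeR called 0 of the 17, and the adjusted p of Atf3 was 0.105 at a log2 fold change of 0.72. Atf3, a stress-induced transcription factor, was at 49.0, 47.0 and 42.6 CPM with vehicle and at 69.7, 77.1 and 81.6 CPM with BCAA (log2 fold change 0.72, SE 0.09, edgeR adjusted p = 0.00151). Beside it, Trib3, a pseudokinase induced by ATF4, was at 59.2, 68.6 and 65.7 CPM with vehicle and at 75.9, 83.0 and 77.7 CPM with BCAA, with a log2 fold change of 0.29 (SE 0.08, edgeR adjusted p = 0.147). The lipoprotein receptor gene Vldlr had 0.35 (SE 0.07, edgeR adjusted p = 0.0565). The adjusted p of Vldlr was 0.00619 with DESeq2 and, with edgeR, 0.0459 on library totals only, 0.0167 with unfiltered genes and 0.00243 when vehicle replicate 1 was left out, with a range of 0.00243 to 0.25 across the alternatives. The secreted glycoprotein gene Stc2 had 0.51 (SE 0.13, edgeR adjusted p = 0.137). These 4 genes, with estimates of 0.29 to 0.72, were named for the smallest p of the list, a choice that favours large estimates. Over all 17 genes the median was 0.09, with 13 estimates positive and 4 negative. The enzyme genes ran from -0.13 to 0.15, with Asns and Shmt2 at 0.0037 and -0.01, and Atf4 was at -0.0043. The difference between these genes was not tested. The list was drawn up with earlier results on these samples known, so its count is not independent evidence of direction.

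Promoters were searched for TGATGNAA, the core of the C/EBP-ATF response element through which ATF4 acts, on both strands. The window ran from 250 bases before to 50 bases after each RefSeq gene start in assembly GRCr8, a newer build than the rn6 used for the counts. Windows were found for 9 of the 10 enzyme genes, and the gene without a window was not searched. Among the 9, Pycr1 alone held a match (11.1%), beside 4.16% of all 27457 genes with a window. The gene without a window is not named here. A missing match can therefore not be read for any other single enzyme gene, Asns included. In the ATF4 list 3 of 16 genes held one, namely Trib3, Chac1 and Nupr1. Got1 was the 1 of 14 in the proline, glutamate and glutamine list, and the serine and glycolytic lists had 0 of 18 and 0 of 13. The stretches of Pycr1 (chr10:106420916-106420963, minus strand), Trib3 (chr3:161275527-161275574, minus strand) and Chac1 (chr3:126795944-126795991, plus strand) are shown. They set the only searched enzyme window with the motif beside those of stress genes. They are written 5′ to 3′ on the gene's strand, with the match in capitals. The match begins 131, 21 and 167 bases before the start on which the window was placed, and in Trib3 and Chac1 it lies on the opposite strand. The RefSeq span of Pycr1 extends further upstream than that start, to position 106420982, so the Pycr1 match lies within the gene's span.
Pycr1: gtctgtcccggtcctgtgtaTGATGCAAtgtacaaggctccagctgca
Trib3: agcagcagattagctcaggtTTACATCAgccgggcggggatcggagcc
Chac1: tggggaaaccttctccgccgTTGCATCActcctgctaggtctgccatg
Pycr1, Trib3 and Chac1 had log2 fold changes of -0.13, 0.29 and -0.02 (SE 0.18, 0.08 and 0.10), and none of them passed the test. A match describes letters only, and no match says only that they are not in this window.

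Glycolytic genes upstream of 3-phosphoglycerate and beyond gave 0 of 14 called with edgeR, with 3 higher and 0 lower at an unadjusted p under 0.05, beside 5.95% and 5.84% of all genes (median log2 fold change 0.03). DESeq2 called 0 of the 13 with an adjusted p, and 3 had an unadjusted p under 0.05 with it, for which no share of all genes is given here. Hk2, a hexokinase, was at 227, 274 and 272 CPM with vehicle and at 324, 319 and 294 CPM with BCAA (log2 fold change 0.28, SE 0.08, edgeR adjusted p = 0.161, or 0.0473 without vehicle replicate 1, and 0.0473 to 0.507 across the alternatives). Pfkp, a phosphofructokinase, had 0.24 (SE 0.07, edgeR adjusted p = 0.175). Pgk1, whose reaction yields 3-phosphoglycerate, the substrate of Phgdh, had 0.13 (SE 0.06), and Pgam1, which uses the same metabolite, had 0.11 (SE 0.06). Tpi1 had only 14 to 47 counts per library, and Gapdh spanned a 1.65-fold range among BCAA libraries. Their estimates were imprecise (log2 fold change -0.37, SE 0.41, and -0.05, SE 0.20). Whether reads of these genes were lost to near-identical copies was not tested.

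**Figure D4:**
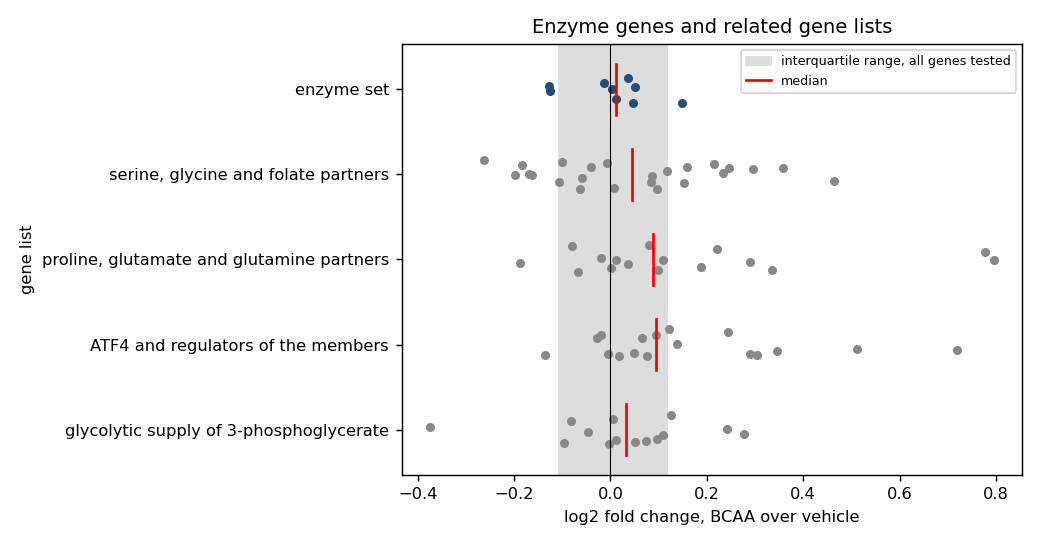
Log2 fold change of BCAA over vehicle (horizontal axis) of the tested genes in the enzyme set and in the 4 related lists (rows); each point is a gene, the red line is the list's median and the grey band is the interquartile range of all genes tested. The enzyme set spans -0.13 to 0.15, and the points farthest right are Aspg (0.80) and Nags (0.78) in the proline, glutamate and glutamine row and Atf3 (0.72) in the ATF4 row. Nags had only 5 to 21 counts per library and overlapping groups (SE 0.49, edgeR adjusted p = 0.574).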

How the data were processed

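The authors deposited raw read counts per gene symbol, neither normalized nor pooled, in 1 table of 6 libraries. The submitters' processing notes list Trimmomatic, FastQC, STAR, HTSeq and the build rn6. No version, annotation or strand setting is given in these sources, so reads of overlapping or antisense genes, and of genes with near-identical copies, may be misassigned. Library totals were 12725344 to 15739731. Groups and replicate numbers came from the titles.

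Counts were filtered with filterByExpr (minimum count 10, minimum total 15), which left 12298 genes with 99.9% of counts. They were scaled by TMM and tested with edgeR's quasi-likelihood test (edgeR 4.0.16, R 4.3.3, robust, group as the only term), with Benjamini-Hochberg adjustment over all genes and a threshold of 0.05. The standard error is the absolute log2 fold change over the square root of F, and 95% intervals use the fit's degrees of freedom. Profile likeness used log2 CPM (prior count 2) and genes of at least 1 CPM. The script was tested on simulated data. DESeq2 1.42.0, other scaling, other filters, a replicate block and leaving out each library were the alternatives. Pairs of libraries differed beyond sampling noise (chi-square per degree of freedom at least 2.65). No transcript lengths were used, so levels are not compared between genes.

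The enzyme genes and the 4 partner lists were chosen with earlier results of these data known. Named genes are the enzyme genes, the 4 partners of each list with the smallest p and any called, isozymes and Atf4, and the 5 genes of most like profile. Chac1, Got1, Nupr1, Nags, Tpi1 and Gapdh were named after their values were seen. Promoter sequences are from RefSeq, assembly GRCr8. Aldh4a1 was not analysed here, and 2 genes within the rule are not reported here.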

Additional observations from a re-analysis of the deposited data

How the results depend on the processing

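None of the 9 enzyme genes was called in any of 108 refits (12 alternatives each, 107 with an adjusted p), where adjusted p was at least 0.264, and the median of the set stayed between -0.01 and 0.04. Psat1, Psph and Glul kept their direction in all 12, and the other 6 did not. Asns had log2 fold changes of -0.0001 with DESeq2 and from -0.0744 to 0.1113 with 1 library left out. Over the refits with 1 library left out, Phgdh ran from -0.023 to 0.1647, Shmt2 from -0.0494 to 0.0046, Mthfd2 from -0.012 to 0.0862, Mthfd1l from -0.0163 to 0.0461, Pycr1 from -0.2939 to 0.0222 and Atf4 from -0.0483 to 0.0851. With library totals only, Shmt2 was at 0.0144 and Atf4 at 0.0268. Causes of these shifts were not tested. Over all genes, 7 were called higher and 21 lower, against 62 and 82 with DESeq2, 57 and 67 without the low-count filter, 11 higher with library totals only, and 2 to 216 higher and 5 to 275 lower with 1 library left out, the most without vehicle replicate 1. Called higher in the ATF4 list were 2 genes with DESeq2, with library totals only and without the filter, and 1 to 2 with 1 library left out. In the proline, glutamate and glutamine list 1 gene was called higher without the filter and 0 to 3 with 1 library left out, and in the glycolytic list 0 to 1. Deviations from the group mean correlated little between libraries of equal replicate number (-0.066, 0.105 and -0.146). With 3 libraries per group this cannot settle whether equal numbers pair the libraries, and the labels do not say. Library totals were alike by number, at 14484051 (vehicle) and 14482260 (BCAA) for replicate 1, 15739731 and 15654060 for replicate 2, and 12725344 and 12802663 for replicate 3. With the replicate number as a block, 1 gene was called higher and 5 lower over all genes, 0 in the ATF4 list, where the adjusted p of Atf3 became 0.105 at a log2 fold change of 0.72, and none of the enzyme genes.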

Other observations

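Among partner genes below the low-count filter, Gldc, the decarboxylase of the glycine cleavage system, had 4, 4 and 4 counts with vehicle and 11, 10 and 8 counts with BCAA. Without the filter its log2 fold change was 1.22 (SE 0.63, edgeR adjusted p = 0.528). Prodh (older symbol Prodh1), the dehydrogenase that begins proline breakdown, had 6, 9 and 6 counts with vehicle and 5, 3 and 4 counts with BCAA (log2 fold change -0.81, SE 0.69, edgeR adjusted p = 0.734). Neither passed the test, and both were singled out after their values were seen. Gad1 and Nupr1 were, like Aldh18a1, at 0 counts in all 6 libraries, of the 5287 rows of the table with no count.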
